A study of Arabidopsis thaliana with 12 samples.

Results

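The genotype by temperature interaction asks, gene by gene, how far the response of Arabidopsis seedlings to warmth depends on the SPA proteins. It is the change from 22 °C to 28 °C in spaQ minus the same change in Col-0, on the log2 scale. All 12 libraries of the series enter it, 3 in each of 4 groups. Of 33655 features in the count table, 17841 passed the filter on low counts and were tested, and 8418 had 0 counts in all libraries. A gene is called here when its adjusted p is under 0.05. An interaction above 0, written as higher, means that the warm response of spaQ lay above that of Col-0, for example because a fall was smaller. An interaction below 0 is written as lower.

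The groups were Col-0, the wild-type accession, at 22 °C and at 28 °C, and spaQ at 22 °C and at 28 °C. SpaQ is the usual name of a quadruple mutant of SPA1, SPA2, SPA3 and SPA4, but the labels give neither its alleles nor its background, and it is a single line. Whole seedlings were 6 days old at harvest. All groups were stratified for 3 days in darkness, then kept for 5 days at 22 °C under 25 µmol of white light on medium without sucrose. The labels give the length of the temperature treatment as 24 h in the series text and as 4 h of continuous white light in the sample protocols, whose text ends at 22 °C for every sample. They do not say whether replicates came from separate cultures, so the p-values measure the spread between these libraries, which may be technical.

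SPA proteins form a ubiquitin ligase complex with COP1 that marks transcription factors for degradation. Its substrates include HY5, HYH, HFR1 and the anthocyanin regulators MYB75 and MYB90. Light through phytochromes and cryptochromes inactivates the complex, and mutants that lack it are short and pigmented, as if they had received more light. Warmth acts on the same pathway, since phytochrome B is also a thermosensor and PIF4, a growth-promoting factor, is active when warm. The lists of genes below follow these outputs and the main metabolic and defence pathways of a seedling.

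The libraries held between 2609808 and 9390725 counts, and 3 counts, taken as the floor of detection, were worth between 0.319 and 1.15 CPM (counts scaled to a common library total, TMM-normalised throughout). Replicate 2 of spaQ at 28 °C stood apart, with a chi-square per degree of freedom of 20.7 and 24.8 against the other 2 libraries of its group. Those 2 differed from each other by 5.88, so the total count, and some of the list counts, are also given without replicate 2. Col-0 at 22 °C was the opposite extreme, with 1.47, 1.51 and 2.13 between its libraries, against 3.32 or more within every other group. The measure is taken on raw counts and grows with depth as well as with spread, and depth differed between the groups. A single model was fitted to all groups despite these unequal values. Whether the Col-0 libraries at 22 °C were technical replicates was not tested. SPA1, SPA2 and SPA3 transcripts were lower in spaQ at both temperatures (log2 differences between −1.69 and −0.92), SPA4 was higher (1.19 and 1.32), and none of the 4 was called for the interaction. A 3′ tag outside a lesion does not check it, and SPA3 and SPA4 overlap another gene. Markers of other cell types also differed between the groups. The 10 root hair markers summed to 88.6 to 96.8 CPM in Col-0 at 22 °C, but to 7.90 to 12.8 CPM at 28 °C. The sums in spaQ were 41.9, 8.81 and 3.75 CPM at 22 °C, then 5.15, 46.5 and 6.75 CPM at 28 °C. The 16 other root markers summed to 2482 to 2602 CPM in Col-0 at 22 °C, 1211 to 1650 CPM in Col-0 at 28 °C, 1140 to 1978 CPM in spaQ at 22 °C and 921 to 1298 CPM in spaQ at 28 °C. THAS1, a root gene, was at 0 to 0.336 CPM in spaQ at 22 °C against 21.2 to 29.2 CPM in Col-0. Guard cell markers summed to 34.1 to 50.8 CPM over all libraries, with 1 of 4 tested called lower for the interaction, and of 9 seed storage markers 1 was tested and 0 were called. In whole seedlings fewer cells of a type and less RNA per cell cannot be told apart, and the part of the root markers in the results was not tested.

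**Figure D1:**
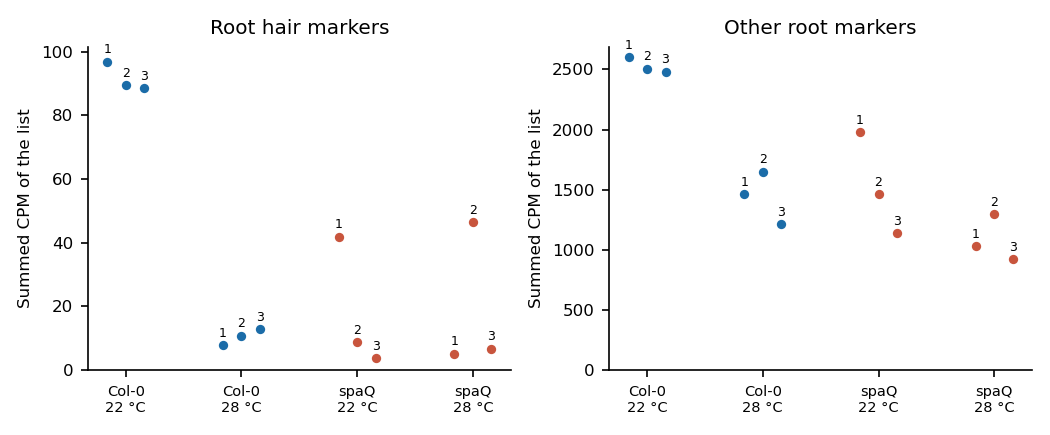
Summed CPM of the root hair markers and of the other root markers in each library (y axis, from 0), by group (x axis), with points numbered by replicate. Root hair markers were highest in Col-0 at 22 °C (88.6 to 96.8 CPM), and in spaQ a single library at each temperature, replicate 1 at 22 °C (41.9 CPM) and replicate 2 at 28 °C (46.5 CPM), stood above the others.

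The interaction was called for 2117 of 17841 genes (11.9%), 1174 higher (6.58%) and 943 lower (5.29%), by edgeR's quasi-likelihood test with Benjamini-Hochberg adjustment. The warm response itself was called for 40.8% of genes in Col-0 (18.9% up, 21.9% down) and for 12.4% in spaQ (6.55% up, 5.87% down). Between the genotypes, 42.5% were called at 22 °C (20.7% higher in spaQ, 21.7% lower) and 30.9% at 28 °C (13.5% lower). All of these comparisons share libraries, and the interaction equals the difference between genotypes at 28 °C minus that at 22 °C, so the values that follow are set side by side and not used to support one another. Among the 943 lower genes the median warm response was 1.62 in Col-0 and −0.16 in spaQ, and the median difference of spaQ from Col-0 was 1.78 at 22 °C and −0.05 at 28 °C. Among the 1174 higher genes the median warm response was −0.96 in Col-0 and 0.00 in spaQ, with median differences between genotypes of −0.39 at 22 °C and 0.61 at 28 °C. For 8304 genes (46.5%) the 95% interval of the interaction lay between −1 and 1, so a difference of more than 2-fold between the warm responses was outside it.

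The count of 2117 depended on single libraries. It was 928, 885 and 1051 without replicate 1, 2 or 3 of Col-0 at 22 °C, 1170 and 1273 without replicate 2 or 3 of Col-0 at 28 °C, and 1007 and 968 without replicate 2 or 3 of spaQ at 22 °C. Leaving out replicate 2 of spaQ at 28 °C gave 1751 calls, 37.9% of them higher, against 55.5% of 2117. Scaling by library totals instead of TMM gave 1891 calls, 25.6% of them higher (49.5% with DESeq2 size factors), and moved the median interaction of all genes from 0.06 to −0.12, so small values on the higher side depend on the scaling.

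**Figure D2:**
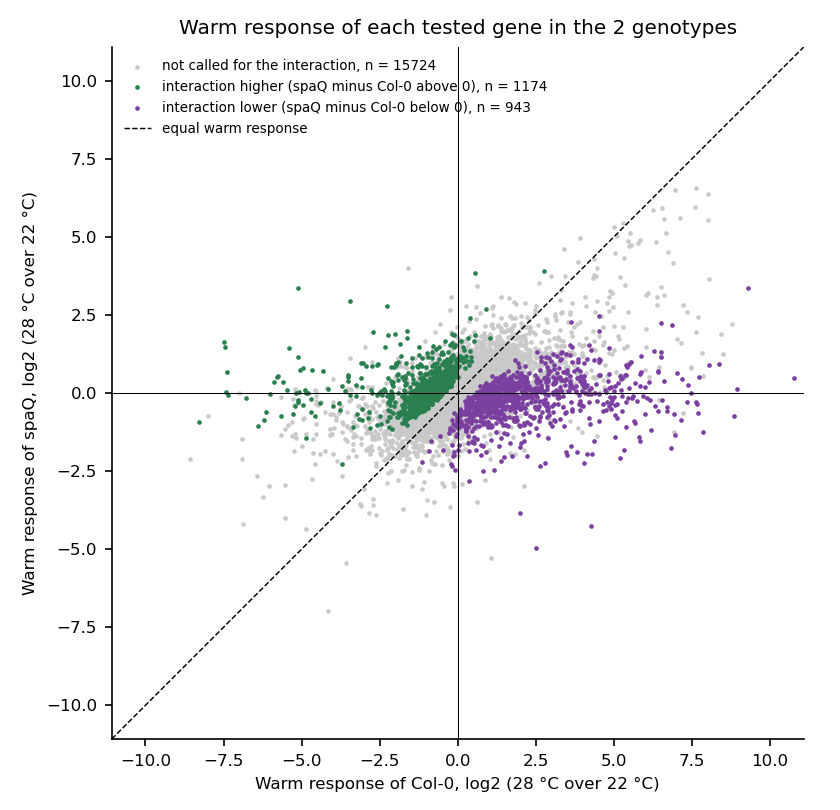
Warm response of each of the 17841 tested genes in Col-0 (x axis) and in spaQ (y axis), as log2 fold changes from 22 °C to 28 °C, with genes called for the interaction in green (1174 higher) and purple (943 lower) and the line of equal response dashed. The purple genes lie below the line, with a median of 1.62 in Col-0 and −0.16 in spaQ, and the green genes above it, with medians of −0.96 and 0.00.

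Across 21 pathway lists, 4 had the largest shares of members called for the interaction. These were chlorophyll synthesis (17 of 20 tested, all higher), iron (17 of 21, 7 higher and 10 lower), indole glucosinolates (10 of 14, all lower) and photoprotection (6 of 13, all higher), against 6.58% of all tested genes called higher and 5.29% called lower. Auxin response and aliphatic glucosinolates had 0 called members. In the indole glucosinolate list all 14 tested members had a level in spaQ at 22 °C nearer to Col-0 at 28 °C than to Col-0 at 22 °C, on log2(CPM + 0.5) means. The same held for 14 of 16 salicylic acid immunity genes, 18 of 21 iron genes and 9905 of all tested genes (55.5%). It also held for 787 of the 943 lower genes (83.5%) and 543 of the 1174 higher genes (46.3%). The trait was thus common among lower genes in general and not particular to these lists.

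**Figure D3:**
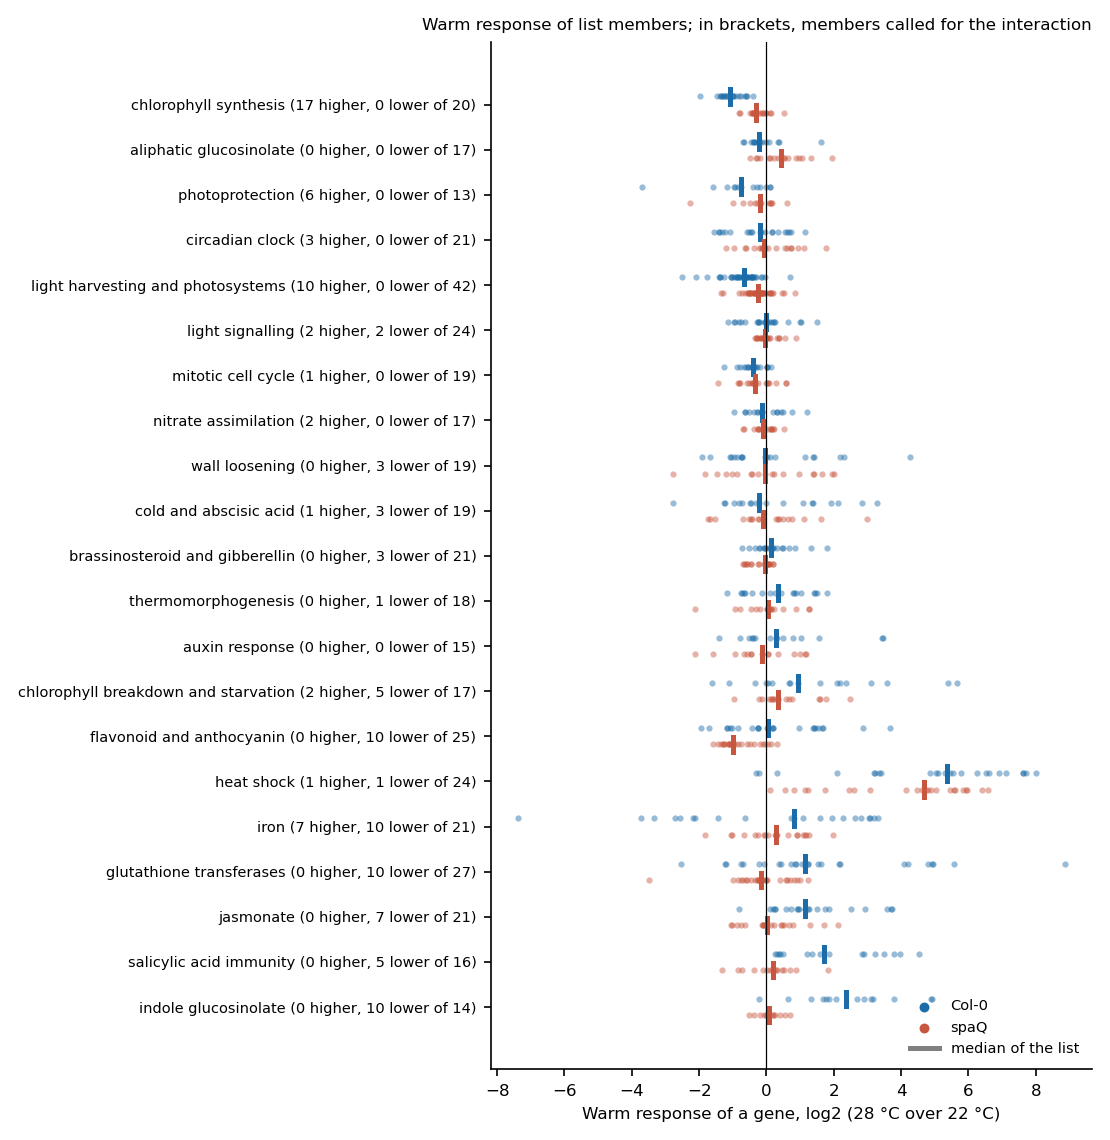
Warm response (log2, 28 °C over 22 °C, x axis) of every tested member of the 21 pathway lists (y axis) in Col-0 (blue) and spaQ (red), with the median of each list as a bar and the members called for the interaction in brackets. Indole glucosinolate genes had medians of 2.37 in Col-0 and 0.08 in spaQ, chlorophyll synthesis genes −1.07 and −0.32, and heat shock genes 5.37 and 4.67.

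Most genes of indole glucosinolate synthesis rose with warmth in Col-0, and none was called in spaQ, where most were already higher than in Col-0 at 22 °C. These compounds, made from tryptophan, deter insects and microbes. Of 14 members, 12 were called up in Col-0 and 0 in spaQ by edgeR (1 at an unadjusted p under 0.05), 12 were higher in spaQ than in Col-0 at 22 °C and 1 (MYB34) was lower, and at 28 °C 0 were higher and 1, again MYB34, was lower. The interaction was called lower for 10 of 14 (median −2.17, against 0.06 over all tested genes). Calls in spaQ depend on replicate 2 at 28 °C. Without it those over all tested genes rose from 2217 to 4024, and spaQ calls within the lists were not counted again. CYP81F2 is a cytochrome P450 that hydroxylates indole glucosinolates, and WRKY33 is a defence regulator described next. Upstream sequences of both genes, each with the smallest interaction p of its list, are shown. They are the 250 bases before the annotated gene start in RefSeq's TAIR10.1, written 5′ to 3′ on the gene's strand, with the W-box core TTGAC in capitals, or GTCAA where it lies on the other strand. WRKY proteins bind W-boxes.
CYP81F2 (chr5:23187590-23187839, plus strand): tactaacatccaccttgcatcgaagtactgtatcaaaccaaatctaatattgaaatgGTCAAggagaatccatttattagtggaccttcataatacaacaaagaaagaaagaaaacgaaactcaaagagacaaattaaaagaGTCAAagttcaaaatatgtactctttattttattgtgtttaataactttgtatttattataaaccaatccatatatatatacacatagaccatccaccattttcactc
WRKY33 (chr2:16107985-16108234, plus strand): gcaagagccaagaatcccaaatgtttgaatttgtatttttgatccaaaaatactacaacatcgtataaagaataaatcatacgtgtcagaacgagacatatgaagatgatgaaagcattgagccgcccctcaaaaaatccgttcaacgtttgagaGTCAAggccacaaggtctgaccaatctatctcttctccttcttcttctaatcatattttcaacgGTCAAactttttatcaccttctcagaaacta
Both windows hold a pair of cores, at −193 and −108 in CYP81F2 and at −95 and −31 in WRKY33, counted from the gene start. The core occurred on either strand in 45.2% of the windows of all tested genes with one, 58% of those of lower genes, 41.4% of those of higher genes, and 6 of 14 indole glucosinolate genes (42.9%). A match is a description of the letters and not a shown binding site.

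CYP81F2 (AT5G57220) had levels of 2.71, 5.03 and 4.47 CPM at 22 °C in Col-0, rising to 90.4, 128 and 152 CPM at 28 °C. Its levels in spaQ were 114, 134 and 118 CPM at 22 °C, and 185, 52.8 and 184 CPM at 28 °C. Only Col-0 at 22 °C lay apart from the other groups, and in spaQ at 28 °C replicate 2 was the lowest. The warm response was 4.90 in Col-0 and 0.20 in spaQ (interaction −4.70, SE 0.614, adjusted p = 0.00154). MYB51 (AT1G18570), a transcriptional activator of the pathway, stood at 7.84, 4.19 and 4.25 CPM, then 51.8, 83.5 and 87.2 CPM in Col-0, and at 58.5, 82.4 and 83.0 CPM, then 105, 22.3 and 110 CPM in spaQ (interaction −3.71, SE 0.714, adjusted p = 0.00803). CYP83B1 (AT4G31500), which commits the aldoxime intermediate to glucosinolates, stood at 64.0 to 72.9 CPM in Col-0 at 22 °C, then at 195 to 231 CPM at 28 °C. In spaQ its levels were 215 to 236 CPM at 22 °C and 110 to 255 CPM at 28 °C (interaction −1.85, SE 0.324, adjusted p = 0.00610). For CYP81F2 and MYB51, replicates 1 and 3 of spaQ at 28 °C lay above every spaQ library at 22 °C. For CYP83B1 replicate 3 did not.

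Genes that supply tryptophan had interactions in the same range. They were ASA1 (−2.71), an anthranilate synthase subunit, AT2G04400 (−2.48), an indole-3-glycerol phosphate synthase that overlaps another gene, and the tryptophan synthase genes TSA1 (−2.95) and TSB1 (−1.78). CYP79B2 (−3.07), which makes the aldoxime, and SOT16 (−1.51), a sulfotransferase, were also called. MYB122 was under the floor in Col-0 at 22 °C, and with the floor in its place the interaction was −4.32. CYP79B3 and UGT74B1 were not called, with −1.70 (SE 0.693, adjusted p = 0.135) and −1.17 (SE 0.409, adjusted p = 0.0826), nor were SUR1 (−0.62) and MYB34 (0.45). The count of 10 was 5 or 6 without any one of replicates 1, 2 and 3 of Col-0 at 22 °C, replicates 2 and 3 of Col-0 at 28 °C or replicates 2 and 3 of spaQ at 22 °C. Leaving out replicate 2 of the warm spaQ group, the library with the lowest CYP81F2 and MYB51, gave 11, and the replicate block gave 6.

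Genes of salicylic acid immunity were also lowest in Col-0 at 22 °C in most cases. Salicylic acid is the hormone of defence against biotrophic pathogens, and WRKY factors switch its targets. Of 16 tested members, 11 were called up in Col-0 and 0 in spaQ, 13 were higher in spaQ at 22 °C and 2 at 28 °C, and the interaction was called lower for 5 (median −2.09, or −1.94 with genes under the floor set to it). WRKY33 (AT2G38470) had levels of 8.14, 8.67 and 6.94 CPM at 22 °C in Col-0, rising to 83.8, 123 and 123 CPM at 28 °C. SpaQ had 98.2, 147 and 134 CPM, then 185, 67.0 and 188 CPM (interaction −3.58, SE 0.488, adjusted p = 0.00204). It overlaps other annotated genes, and without strand information its reads cannot be told from theirs. WRKY40 (AT1G80840) stood at 2.80 to 3.36 CPM and 25.9 to 50.1 CPM in Col-0, and at 17.1 to 21.8 CPM and 13.5 to 34.9 CPM in spaQ (interaction −3.02, SE 0.547, adjusted p = 0.00578). It overlaps another gene and shares a 50-base stretch with a further one, so its counts are uncertain.

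WRKY18 (AT4G31800) differed in form, since it fell in spaQ. It stood at 15.4 to 16.6 CPM and 18.7 to 25.6 CPM in Col-0 (0.49, adjusted p = 0.0264) and at 69.3 to 83.9 CPM and 39.4 to 52.5 CPM in spaQ (−0.72, adjusted p = 0.00829), with an interaction of −1.21 (SE 0.216, adjusted p = 0.00643). PR5 (AT1G75040), a thaumatin-like pathogenesis protein, had an interaction of −2.90 (SE 0.714, adjusted p = 0.0214) and EDS5, a chloroplast transporter of the salicylic acid pathway, one of −2.19. WRKY70 (−2.02, SE 0.709, adjusted p = 0.0801) and CBP60G (−2.16, SE 0.794, adjusted p = 0.0822) missed the threshold, while both rose in Col-0. ICS1, an enzyme gene of salicylic acid synthesis, was called in none of the 4 comparisons of groups, with a warm response of 0.40 in Col-0 and 0.29 in spaQ. PR1 and PR2 had too few counts to be tested. The count of 5 was 3 without any one library of Col-0 at 22 °C, without replicate 3 of Col-0 at 28 °C or without replicate 3 of spaQ at 22 °C, while leaving out replicate 2 of the warm spaQ group gave 6.

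**Figure D4:**
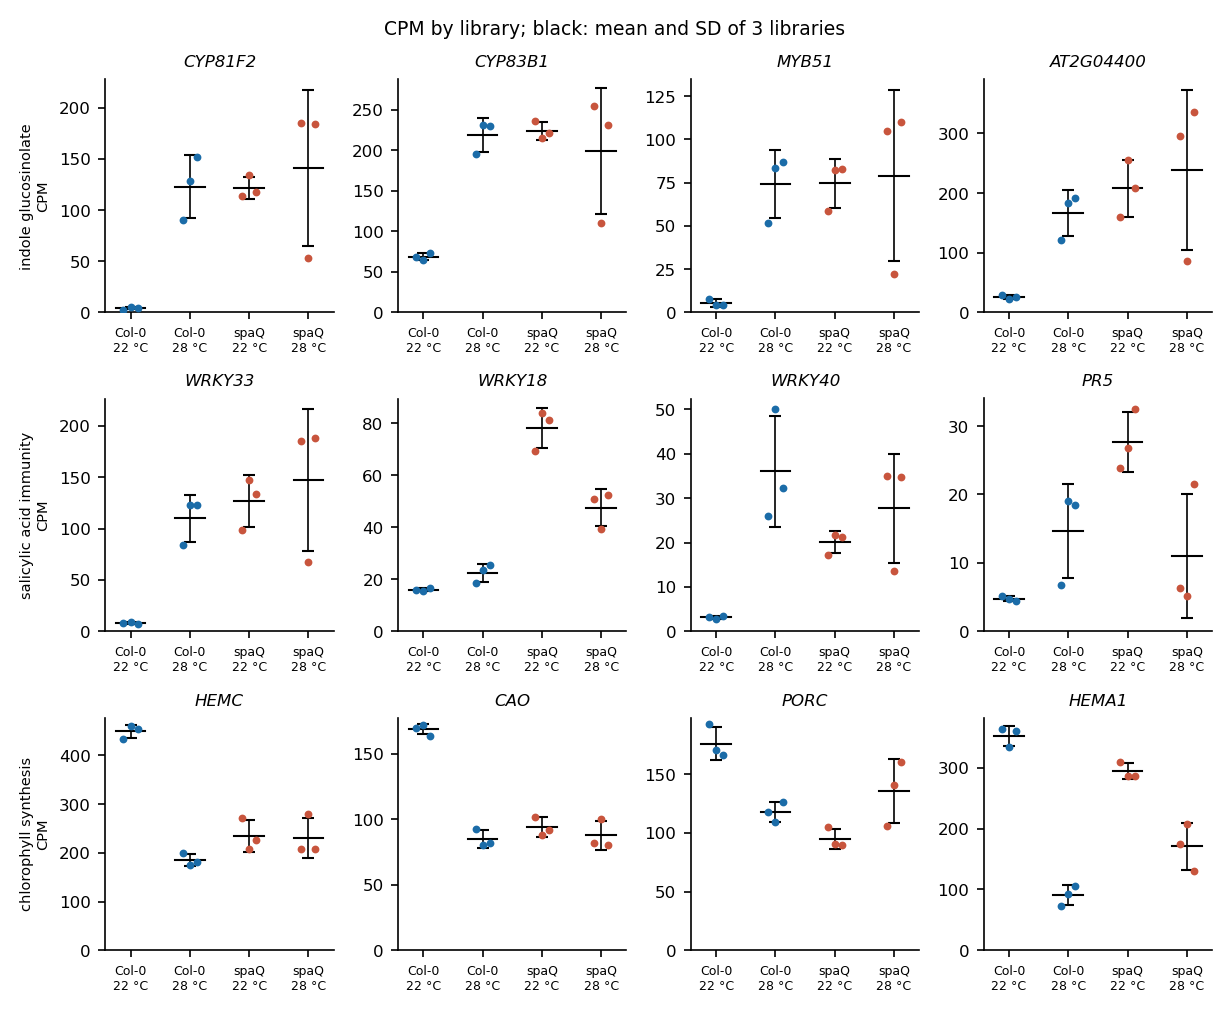
CPM of single genes (y axes, from 0) in each library by group (x axes), for the indole glucosinolate, salicylic acid immunity and chlorophyll synthesis lists, 4 genes in each row. CYP81F2, MYB51 and WRKY33 were low in Col-0 at 22 °C only, with replicate 2 the lowest point of spaQ at 28 °C, whereas HEMC and CAO were highest in Col-0 at 22 °C.

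Jasmonate genes, which act in wounding and in defence against insects, showed the pattern in part. Of 21 tested, 13 were called up and 1 down in Col-0, against 0 and 2 in spaQ. The interaction was lower for 7, against 5.29% of all tested genes (median −1.12, or −1.06 with genes under the floor set to it). AOC1 (AT3G25760), an allene oxide cyclase of jasmonate synthesis, stood at 11.5 to 12.4 CPM and 34.1 to 42.7 CPM in Col-0, and at 54.6 to 86.2 CPM and 48.2 to 95 CPM in spaQ (interaction −1.71, SE 0.334, adjusted p = 0.00917). LOX4, a lipoxygenase, had −2.27 (SE 0.471, adjusted p = 0.0108), AOC4 −1.12, and AOC2, which shares a 50-base stretch with another gene, −1.61 (SE 0.392, adjusted p = 0.0224). LOX2 (AT3G45140), a chloroplast lipoxygenase, did not start high in spaQ: it stood at 189 to 219 CPM and 293 to 530 CPM in Col-0 and at 181 to 340 CPM and 52.1 to 163 CPM in spaQ (interaction −1.95, SE 0.504, adjusted p = 0.0276). The repressors JAZ1 (−2.58) and JAZ6 (−1.35) were also called. MYC2, the master activator, was not (−0.77, SE 0.321, adjusted p = 0.141), nor was VSP2, a storage protein and common marker, at −1.59 (SE 1.42, adjusted p = 0.543). The count of 7 was 2 to 4 without any one library of Col-0 at 22 °C, replicate 2 or 3 of Col-0 at 28 °C or replicate 2 of spaQ at 22 °C, and 2 with the replicate block.

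Glutathione transferases, which conjugate glutathione to toxic and defence compounds, included several interactions beyond −4 on the log2 scale. Of 27 members, 18 were called up and 4 down in Col-0, against 3 up and 1 down in spaQ. The interaction was lower for 10 (median −1.02), against 5.29% of all tested genes. GSTF7 (AT1G02920) stood at 36.8, 30.5 and 32.0 CPM and then 1198, 1600 and 1961 CPM in Col-0, whereas spaQ had 1769, 3016 and 2245 CPM, then 2481, 507 and 3293 CPM (interaction −5.75, SE 0.669, adjusted p = 0.00138). GSTF6 (AT1G02930) shares a 50-base stretch with GSTF7, so reads may be split between them, and had −5.24 (SE 0.625, adjusted p = 0.00150). GSTF2 (AT4G02520) went from 144 to 164 CPM to 1817 to 3217 CPM in Col-0 and from 1330 to 2670 CPM to 436 to 3808 CPM in spaQ, with −4.07 (SE 0.743, adjusted p = 0.00830). GSTU4 (AT2G29460) had −5.16 (SE 0.864, adjusted p = 0.00488), GSTU10 −4.40, GSTF3 −4.49, GSTU25 −2.38, GSTU24 −2.27 and GSTF9 −1.41. GSTU3 had 0 counts in Col-0 at 22 °C, and with the floor in its place the interaction was −4.75. GSTU7 rose in both genotypes (2.16 and 1.24) and was not called (−0.93, SE 0.373, adjusted p = 0.129), nor was GSTU26 (1.53, SE 0.497, adjusted p = 0.0625). The W-box core was present upstream of 18 of the 27 genes (66.7%), against 45.2% of all tested genes and 58% of lower genes. This was not particular to the list. The share was 77.8% in thermomorphogenesis, 62.5% in light signalling, 61.5% in photoprotection and 56.2% in salicylic acid immunity. The count of 10 was 6 without any one library of Col-0 at 22 °C, replicate 3 of Col-0 at 28 °C or replicate 2 of spaQ at 22 °C, while leaving out replicate 2 of the warm spaQ group gave 13.

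Genes of chlorophyll breakdown and starvation were called on both sides. Of 17 tested, 11 were called up and 2 down in Col-0, 4 up and 0 down in spaQ, and 13 were higher in spaQ at 22 °C. The interaction was lower for 5 and higher for 2, against 5.29% and 6.58% of all tested genes. Among the lower 5, NAC6 (AT5G39610), which promotes leaf senescence, stood at 8.50 to 8.74 CPM and 42.9 to 47.5 CPM in Col-0 and at 56.5 to 75.5 CPM and 41.8 to 95.4 CPM in spaQ (interaction −2.23, SE 0.357, adjusted p = 0.00398). SAG13 had −4.81 (SE 1.24, adjusted p = 0.0138) and WRKY53, a senescence regulator, −2.03. PPH, the pheophytinase of chlorophyll breakdown, had −1.38, and DIN11 −6.62 (SE 1.51, adjusted p = 0.0142) with 226, 10.5 and 396 CPM in spaQ at 28 °C. ASN1 (AT3G47340), asparagine synthetase, went the other way in both senses. It stood at 133, 218 and 277 CPM and then 82.6, 58.3 and 62.8 CPM in Col-0, a fall, and at 126, 156 and 67.1 CPM and then 596, 169 and 418 CPM in spaQ, a rise (interaction 3.38, SE 0.573, adjusted p = 0.00559). It overlaps another gene. NYC1, a chlorophyll b reductase, had 0.88, and SAG20 rose in both genotypes (2.2 and 1.60) without a called interaction (−0.59, SE 0.385, adjusted p = 0.355). The count of 7 was 4 without replicate 2 or 3 of spaQ at 22 °C.

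Chlorophyll synthesis fell with warmth in Col-0, in 20 of 20 tested genes (median −1.07), while in spaQ 3 fell and 1 rose (median −0.32). The interaction was called higher for 17 of 20 (85.0%, median 0.85). Of the 20 genes, 7 had a level in spaQ at 22 °C nearer to Col-0 at 28 °C than to Col-0 at 22 °C. In spaQ 12 genes were lower than in Col-0 at 22 °C and 0 higher, and at 28 °C 10 were higher and 1 lower. The upstream windows of HEMC, a porphobilinogen deaminase, and of CAO, the oxygenase that makes chlorophyll b, are given because their interactions had the smallest p of the list. G-boxes (CACGTG), which HY5 and the PIF factors bind, and W-box cores are in capitals.
HEMC (chr5:2665827-2666076, minus strand): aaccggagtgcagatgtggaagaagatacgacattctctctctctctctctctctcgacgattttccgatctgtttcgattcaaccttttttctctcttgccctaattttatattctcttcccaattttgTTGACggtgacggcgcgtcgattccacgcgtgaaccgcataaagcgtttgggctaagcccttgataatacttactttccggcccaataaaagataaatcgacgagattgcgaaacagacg
CAO (chr1:16851272-16851521, minus strand): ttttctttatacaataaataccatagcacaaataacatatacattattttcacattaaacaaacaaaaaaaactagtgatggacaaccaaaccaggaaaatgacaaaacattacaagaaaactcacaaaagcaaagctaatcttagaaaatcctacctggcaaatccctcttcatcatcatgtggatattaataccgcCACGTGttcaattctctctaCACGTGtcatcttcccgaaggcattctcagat
CAO holds 2 G-boxes, at −52 and −32, and HEMC none, with 1 W-box core at −120. A G-box was present in 2 of 20 windows of the list (10%), in 7.48% of all tested genes, in 6.58% of higher genes and in 7.77% of lower genes.

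HEMC (AT5G08280) had levels of 433, 460 and 453 CPM at 22 °C in Col-0, falling to 199, 174 and 181 CPM at 28 °C. SpaQ had 271, 207 and 226 CPM, then 207, 279 and 208 CPM. The Col-0 groups did not overlap and the spaQ groups did (interaction 1.26, SE 0.195, adjusted p = 0.00353). CAO (AT1G44446) stood at 170, 172 and 164 CPM and 92.8, 80.2 and 82.1 CPM in Col-0, and at 102, 87.7 and 91.7 CPM and 82.0, 100 and 80.7 CPM in spaQ (interaction 0.89, SE 0.163, adjusted p = 0.00722). HEMA1 (AT1G58290), glutamyl-tRNA reductase at the start of the pathway, fell in both genotypes, from 334 to 363 CPM to 73.4 to 106 CPM in Col-0 and from 286 to 309 CPM to 131 to 208 CPM in spaQ (interaction 1.18, SE 0.231, adjusted p = 0.00930). PORC (AT1G03630), a light-dependent protochlorophyllide reductase, fell in Col-0 and rose in spaQ, where it stood at 89.7 to 105 CPM and then 106 to 160 CPM (interaction 1.1, SE 0.202, adjusted p = 0.00727). HEMC, CAO and PORC overlap other genes.

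The other called members of the list ran from 0.51 (HEMB1) to 1.08 (HEME2) and covered the path from GSA1 (0.61) and GSA2 (0.92) through the magnesium chelatase subunits CHLI1 (0.84), CHLI2 (1.07) and CHLD (0.67) to CHLM (1.02) and chlorophyll synthase CHLG (0.87). The other 3 members were not called. PORB (AT4G27440) fell alike in size in both genotypes (−0.91 and −0.81, interaction 0.10 with a 95% interval from −0.23 to 0.43) and was much lower in spaQ at 22 °C, by −2.41. GUN5, the H subunit of the chelatase (0.69, SE 0.228, adjusted p = 0.0673), and GUN4, its activator (0.61), missed the threshold. The count of 17 was 6, 5 and 10 without replicate 1, 2 or 3 of Col-0 at 22 °C, 10 and 6 without replicate 2 or 3 of spaQ at 22 °C, while leaving out replicate 2 of the warm spaQ group gave 13. With library totals in place of TMM it was 9, all higher.

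Light harvesting and photosystem genes fell in Col-0 in 36 of 42 cases (median −0.68) and in spaQ in 9 (median −0.24). The interaction was called for only 10, all higher (median 0.40), against 6.58% of all tested genes. RBCS1B (AT5G38430), a Rubisco small subunit, stood at 1079 to 1387 CPM and 185 to 261 CPM in Col-0, and at 961 to 1200 CPM and 505 to 880 CPM in spaQ (interaction 1.77, SE 0.278, adjusted p = 0.00398). It shares a 50-base stretch with RBCS2B (0.97, SE 0.208, adjusted p = 0.0132), so reads may be split between them. LHCB2.3 (AT3G27690), an antenna protein gene, stood at 793 to 971 CPM and 177 to 337 CPM in Col-0, and at 126 to 264 CPM and 183 to 354 CPM in spaQ (interaction 2.29, SE 0.427, adjusted p = 0.00800). It overlaps another gene. LHCA1 (0.80, SE 0.194, adjusted p = 0.0214) rose in spaQ, by 0.46, and LHCB1.4 (2.0), PSBO2 (0.70), PSBQA (0.67) and PSBY (0.65) were called too. LHCB1.1 fell by 1.37 in Col-0 and by 1.34 in spaQ (interaction 0.03, 95% interval from −0.50 to 0.55), and LHCB1.3 had 0.13 (95% interval from −0.49 to 0.74).

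The count of 10 was under 7 without any one library of Col-0 at 22 °C (2, 2 and 4) or at 28 °C (4, 3 and 6), without replicate 2 or 3 of spaQ at 22 °C (3 and 3) and 5 when replicate 2 of the warm spaQ group was dropped. Dropping replicate 3 of that group gave 20, against 3 with the replicate block and 3 with library totals. The genes of photoprotection, which dissipate or screen excess light, fell in Col-0 in 7 of 13 cases and in spaQ in 4, with 1 rise, and the interaction was called higher for 6 (median 0.48). All 13 were higher in spaQ than in Col-0 at 28 °C and 9 at 22 °C. ELIP2 (AT4G14690), an early light-induced protein, stood at 62.7, 63.5 and 73.6 CPM and then 5.76, 4.62 and 4.61 CPM in Col-0, whereas spaQ had 1182, 1300 and 1217 CPM, then 233, 269 and 269 CPM. It fell in both genotypes without overlap, by 3.71 and 2.26 (interaction 1.45, SE 0.178, adjusted p = 0.00134). PSBS, the sensor of non-photochemical quenching, had 0.88 (SE 0.188, adjusted p = 0.0136), LIL3:1 0.87 (SE 0.222, adjusted p = 0.0258), NPQ1, violaxanthin de-epoxidase, 0.87, OHP 0.79 (SE 0.199, adjusted p = 0.0244) and PSY, phytoene synthase, 0.45. OHP2 (0.48, SE 0.166, adjusted p = 0.0789) and SEP2 (0.11, SE 0.172, adjusted p = 0.728) were not called. The count of 6 was 1 or 2 without any one library of Col-0 at 22 °C, replicate 3 of Col-0 at 28 °C or replicate 2 or 3 of spaQ at 22 °C. Without replicate 2 of Col-0 at 28 °C it was 2 higher and 1 lower, and with library totals 2. Dropping replicate 2 of the warm spaQ group gave 4.

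Of 24 tested light signalling genes, 13 were higher and 6 lower in spaQ at 22 °C, and the interaction was called higher for 2 and lower for 2 (16.7%, against 11.9% of all tested genes). HYH (AT3G17609), a bZIP partner of HY5, stood at 95.3 to 103 CPM and 39.3 to 49.4 CPM in Col-0, and at 181 to 195 CPM and 142 to 176 CPM in spaQ (interaction 0.92, SE 0.163, adjusted p = 0.00623). RUP2, a repressor of the UV-B receptor, had 1.28 (SE 0.280, adjusted p = 0.0142). HFR1 (AT1G02340), an atypical bHLH factor that binds PIFs, rose in Col-0 from 2.52 to 3.58 CPM to 6.22 to 11.2 CPM and stood in spaQ at 9.17 to 11.9 CPM and 10.1 to 11.3 CPM (interaction −1.48, SE 0.360, adjusted p = 0.0207). PHYA, phytochrome A, had −0.67 (SE 0.177, adjusted p = 0.0290). HY5 was higher in spaQ at both temperatures (0.94 and 1.3) with an interaction of 0.36 (95% interval from −0.06 to 0.78), and COP1 had 0.08. The count of 4 was 2 without replicate 2 of Col-0 at 22 °C or replicate 2 of spaQ at 22 °C.

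Among 21 tested clock genes, 10 fell and 3 rose in Col-0, while 2 fell and 5 rose in spaQ. The interaction was called higher for 3 (14.3%, against 11.9% of all tested genes in either direction). RVE1 (AT5G17300), a morning MYB factor that overlaps another gene, stood at 48.1 to 52.8 CPM and 18.7 to 19.7 CPM in Col-0, and at 69.4 to 75.3 CPM and 48.8 to 83.4 CPM in spaQ (interaction 1.19, SE 0.237, adjusted p = 0.00969). PRR5 had 1.17 (SE 0.284, adjusted p = 0.0214). CDF1, a repressor of flowering genes, was called in spaQ alone, from 3.34 to 7.28 CPM to 17.0 to 21.3 CPM (interaction 1.43, SE 0.291, adjusted p = 0.0104). LHY fell by 1.32 in Col-0 and by 1.19 in spaQ (interaction 0.13, 95% interval from −0.23 to 0.49), and LNK1 rose in both (1.16 and 0.93). Harvest times are not stated, and the count of 3 was 6 without replicate 3 of spaQ at 28 °C. A G-box was present upstream of 8 of the 21 clock genes (38.1%), against 7.48% of all tested genes.

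Flavonoid genes divided into early and late steps. The early enzymes, which serve flavonols, fell with warmth in both genotypes. CHS fell by 1.17 in Col-0 and by 0.98 in spaQ, CHI by 1.02 and 1.29, F3H by 1.07 and 1.36, and FLS1 by 1.93 and 1.1, and none of these was called for the interaction. The late anthocyanin enzymes and their regulators rose in Col-0 and fell or were not called in spaQ. In all, 9 of 25 tested members rose and 8 fell in Col-0, 0 rose and 13 fell in spaQ, and 19 were higher in spaQ at 22 °C. The interaction was called lower for 10 (median −0.82), against 5.29% of all tested genes. LDOX (AT4G22880), which makes anthocyanidins, stood at 20.8, 24.0 and 17.2 CPM and then 53.6, 71.2 and 44.7 CPM in Col-0, and at 75.8, 91.6 and 68.8 CPM and then 33.7, 27.1 and 56.8 CPM in spaQ (interaction −2.45, SE 0.357, adjusted p = 0.00265). The groups of each genotype did not overlap and moved in opposite directions. It shares a 50-base stretch with another gene.

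GSTF12 (AT5G17220), the glutathione transferase that carries anthocyanin to the vacuole, stood at 13.9 to 18.4 CPM and 33.5 to 62.7 CPM in Col-0, and at 50.9 to 75.9 CPM and at least 22.0 CPM in spaQ (interaction −2.57, SE 0.433, adjusted p = 0.00519), and overlaps another gene. DFR (−2.32), the glycosyltransferase genes UF3GT (−2.42) and AT4G14090 (−2.82) and the acyltransferase AT5MAT (−2.07) had like values. MYB75 (AT1G56650), the main anthocyanin activator, stood at 2.41, 2.52 and 1.79 CPM and then 14.2, 21.1 and 14.3 CPM in Col-0, and at 4.88, 3.45 and 5.42 CPM and then 3.96, 3.67 and 7.67 CPM in spaQ (interaction −2.72, SE 0.477, adjusted p = 0.00538). Unlike the enzymes, it was not at the Col-0 warm level in spaQ at 22 °C. MYB90 was under the floor in Col-0 at 22 °C, where the floor gives an interaction of −3.18, and it shares a 50-base stretch with another gene. Their partner TT8, a bHLH factor, had −3.27. UGT78D1, a flavonol rhamnosyltransferase, was the other called member (−0.86). The count of 10 was between 7 and 12 when single libraries were left out, and 12 without replicate 2 of spaQ at 28 °C.

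**Figure D5:**
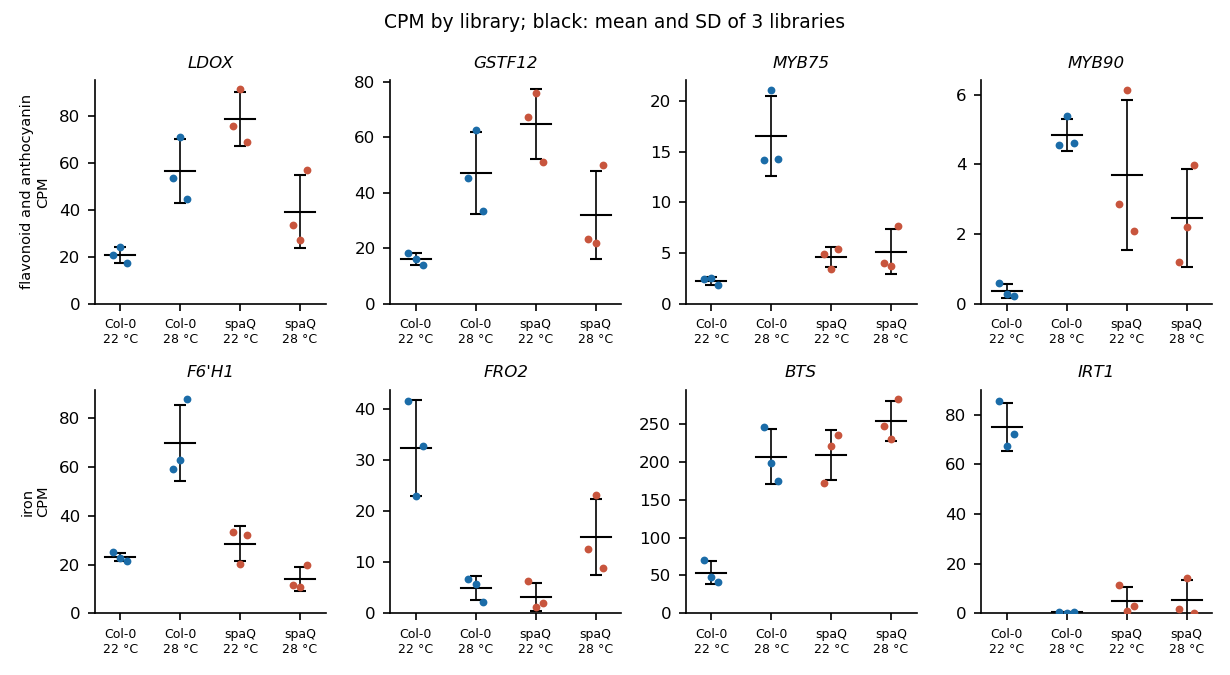
CPM of LDOX, GSTF12, MYB75 and MYB90 (upper row) and of F6'H1, FRO2, BTS and IRT1 (lower row) in each library (y axes, from 0), by group (x axes). LDOX rose from 17.2 to 24.0 CPM to 44.7 to 71.2 CPM in Col-0 and fell from 68.8 to 91.6 CPM to 27.1 to 56.8 CPM in spaQ, and IRT1 in spaQ at 28 °C was high only in replicate 2 (14.4 CPM).

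The interaction was called for 17 of 21 iron genes, 7 higher and 10 lower, and their levels at 22 °C divided by role. In Arabidopsis a regulon that includes the bHLH factors BHLH38, BHLH39 and BHLH101 is induced by iron shortage, FIT (listed as FRU) drives uptake by FRO2 and IRT1 in the root epidermis, and ferritins store iron when it is ample. These genes rose in Col-0: BHLH38 by 3.19, BHLH39 by 3.06, BHLH101 by 2.82, and the list members without a name in RefSeq AT1G47400 by 3.09, AT1G47395 by 3.3 and AT2G30766 by 2.27. All 6 were higher in spaQ than in Col-0 at 22 °C, by 1.92 to 2.09, and their interactions were called lower, from −2.21 to −1.64. BTS (AT3G18290), a ubiquitin ligase that restrains the regulon, stood at 70.6, 48.4 and 41.4 CPM and then 246, 199 and 175 CPM in Col-0, and at 172, 221 and 236 CPM and then 248, 230 and 283 CPM in spaQ (interaction −1.68, SE 0.276, adjusted p = 0.00488). OPT3, a phloem iron transporter, had −0.89 and NAS4 −1.43.

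Ferritin genes had the mirror pattern. FER1 stood at 292, 374 and 422 CPM and then 49.0, 93.5 and 110 CPM in Col-0, and at 144, 203 and 166 CPM and then 253, 120 and 247 CPM in spaQ (interaction 2.39, SE 0.433, adjusted p = 0.00724). FER3 had 1.56 and FER4 1.94. Among uptake genes, FRO2 (AT1G01580), the root ferric reductase, stood at 41.6, 22.9 and 32.7 CPM and then 6.78, 5.65 and 2.3 CPM in Col-0, and at 6.39, 1.15 and 2.08 CPM and then 12.7, 23.2 and 8.90 CPM in spaQ, so that it fell in one genotype and rose in the other (interaction 4.69, SE 0.733, adjusted p = 0.00298). IRT1 (AT4G19690), the iron transporter, stood at 85.6, 67.4 and 72.0 CPM and then 0.465, 0.257 and 0.461 CPM in Col-0, and at 11.4, 0.766 and 2.92 CPM and then 1.58, 14.4 and 0.00 CPM in spaQ (interaction 7.32, SE 1.60, adjusted p = 0.00721). Without replicate 2 of spaQ at 28 °C its interaction was 4.13 with an adjusted p of 0.260.

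IRT1 was high in the spaQ libraries with the most root hair marker RNA, replicate 1 at 22 °C (summed markers 41.9 CPM) and replicate 2 at 28 °C (46.5 CPM). FRO2 followed the root hair markers less closely. It stood at 6.39 CPM in that library at 22 °C. In replicates 1 and 3 of spaQ at 28 °C it stood at 12.7 and 8.90 CPM, where the markers summed to 5.15 and 6.75 CPM. Of 9 tested root hair markers 8 fell in Col-0 and 0 were called in spaQ (0 at an unadjusted p under 0.05), where the libraries spread widely, with 4 called higher for the interaction (0 to 7 when single libraries were left out, and 0 without replicate 2 of spaQ at 28 °C). Of 14 other root markers tested, 13 fell in Col-0 and 2, THAS1 and PHO1, were called higher. Their part in the iron result was not tested. F6'H1 (AT3G13610), which makes iron-mobilising coumarins and overlaps another gene, went against the other uptake genes. It stood at 21.5 to 25.0 CPM and 59.2 to 87.7 CPM in Col-0, and at 20.3 to 33.5 CPM and 10.8 to 19.6 CPM in spaQ (interaction −2.66, SE 0.346, adjusted p = 0.00177). NAS2 had 3.95 and AHA2, a proton pump, 0.68, while NAS1 (0.79, SE 0.278, adjusted p = 0.0842) and FRU (adjusted p = 0.592, under the floor in spaQ at 28 °C) were not called. Without replicate 2 of spaQ at 28 °C, 5 members were higher and 10 lower, and without replicate 2 or 3 of Col-0 at 22 °C or replicate 2 of spaQ at 22 °C 5 and 5, or 5 and 6 without replicate 3 of spaQ at 22 °C.

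Of 18 tested thermomorphogenesis genes, 6 rose and 4 fell in Col-0, 3 rose and 0 fell in spaQ, and 10 were lower in spaQ at 28 °C, but the interaction was called for 1, HFR1 (0 without replicate 2 of spaQ at 22 °C and up to 4 without another library), a share of 5.56% against 11.9% of all tested genes. PIF4 (AT2G43010) stood at no more than 24.1 CPM and then 32.9 to 44.6 CPM in Col-0, and at 4.21 to 5.04 CPM and 8.32 to 15.9 CPM in spaQ. It rose by 0.87 in Col-0 and by 1.25 in spaQ (interaction 0.37, 95% interval from −0.35 to 1.1) while it was lower in spaQ by 2.17 at 22 °C and 1.80 at 28 °C. HB-2, a shade-response homeobox gene, rose by 1.80 and 1.27 (interaction −0.53, SE 0.428, adjusted p = 0.474). PAR2 (0.40, SE 0.336, adjusted p = 0.486) and YUC8, an auxin synthesis enzyme (0.83 in Col-0 and 0.05 in spaQ, interaction −0.78), were not called. IAA29 and SAUR22 were under the floor in spaQ at both temperatures, and no interaction can be read from them.

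Of 15 tested auxin response genes 3 rose and 2 fell in Col-0, 1 rose in spaQ, and 0 were called for the interaction by edgeR (1 had an unadjusted p under 0.05, and DESeq2's Wald test also called 0, while leaving out replicate 3 of the warm spaQ group gave 2 lower calls, and leaving out replicate 1 of spaQ at 22 °C gave 1). The auxin-conjugating enzyme genes GH3.2 and GH3.3 had −2.62 and −2.45, GH3.5 had −0.42 (SE 0.491, adjusted p = 0.635) and IAA3 0.48 (SE 0.607, adjusted p = 0.671). In the brassinosteroid and gibberellin list 3 of 21 were called, all lower (14.3%, against 11.9% of all tested genes in either direction). GID1B (AT3G63010), a gibberellin receptor, stood at 8.14 to 9.78 CPM and 18.5 to 28.3 CPM in Col-0, and at 37.7 to 42.9 CPM and 31.8 to 47.9 CPM in spaQ (interaction −1.3, SE 0.271, adjusted p = 0.0119). BR6OX2, a brassinosteroid oxidase, had −1.17 (SE 0.300, adjusted p = 0.0260) and GA2OX2, which inactivates gibberellin, −1.33 (SE 0.397, adjusted p = 0.0452). GA2OX2 lost its call in 12 of 20 alternative analyses and BR6OX2 in 6. GA2OX6 (−1.58, SE 0.576, adjusted p = 0.0927) and DWF1 (0.47, SE 0.216, adjusted p = 0.184) were not called. This count was 1 without any one library of Col-0 at 22 °C, replicate 3 of Col-0 at 28 °C or replicate 2 of spaQ at 22 °C.

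In the wall loosening list 10 of 19 genes were lower in spaQ at 22 °C and 11 at 28 °C. The interaction was called for 3, all lower (15.8%, against 11.9% of all tested genes in either direction). EXP3 (AT2G37640), an expansin, was not called in Col-0 (56.8 to 62.6 CPM and 51.4 to 67.1 CPM) and fell in spaQ, from 15.3 to 19.6 CPM to 7.92 to 10.1 CPM (interaction −1.03, SE 0.211, adjusted p = 0.0110). EXPA10 had −1.46 (SE 0.355, adjusted p = 0.0219) and XTH23, a xyloglucan endotransglucosylase, −2.88 (SE 0.744, adjusted p = 0.0263). EXPA5 (0.17, 95% interval from −0.45 to 0.80) and EXPA11 (−0.16, SE 0.441, adjusted p = 0.859) fell in both genotypes. The count of 3 was 1 without replicate 1 or 3 of Col-0 at 22 °C, replicate 2 of Col-0 at 28 °C or replicate 3 of spaQ at 22 °C, while dropping replicate 1 of the warm spaQ group gave 3 lower and 2 higher.

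Heat shock genes rose in both genotypes, 21 of 24 in Col-0 (median 5.37, or 5.19 with genes under the floor set to it) and 21 of 24 in spaQ (median 4.67). HSP101, HSP90.1 and HSP70 are chaperones, and the small HSP17 proteins hold unfolding proteins. The interaction was called for 2 of 24 (median −0.84), a share of 8.33% against 11.9% of all tested genes. HSP70 (AT3G12580) stood at 17.2 to 19.3 CPM and 370 to 754 CPM in Col-0, and at 9.08 to 47.1 CPM and 324 to 931 CPM in spaQ (interaction −0.57, 95% interval from −2.15 to 1.01). MBF1C, a co-activator, rose by 5.09 and 5.04 (interaction −0.05, 95% interval from −1.60 to 1.49) and overlaps other genes. Of the 24 intervals, 2 lay within −1 to 1, so for the others a difference of more than 2-fold was not excluded. HSFB1 (AT4G36990), a repressive heat shock factor, was the called exception on the lower side. It stood at 29.6, 28.8 and 26.6 CPM and then 224, 239 and 332 CPM in Col-0, and at 122, 212 and 171 CPM and then 382, 112 and 388 CPM in spaQ (interaction −2.42, SE 0.519, adjusted p = 0.0139). HSFA7A, another heat shock factor, was called higher (1.36, SE 0.379, adjusted p = 0.0355). It lost the call in 13 of 20 alternative analyses, including without replicate 2 of spaQ at 28 °C (1.18, adjusted p = 0.0769). Without replicate 1 of that group 4 members were called, all lower, and 1 was called without any one library of Col-0 at 22 °C, replicate 1 or 2 of Col-0 at 28 °C or replicate 2 or 3 of spaQ at 22 °C. With the heat shock element written as GAANNTTC, which reads alike on both strands, 6 of 24 windows of the list held one (25%), against 9.31% of all tested genes, 14.5% of lower genes and 7.78% of higher genes.

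Cold and abscisic acid genes were mixed, with 1 of 19 called higher and 3 lower (21.1% in all, against 11.9% of all tested genes). ABI1, a phosphatase that restrains abscisic acid signalling and overlaps another gene, stood at 27.7 to 37.1 CPM and 72.2 to 94.3 CPM in Col-0, and at 72.1 to 100 CPM and 52.8 to 82.6 CPM in spaQ (interaction −1.60, SE 0.263, adjusted p = 0.00479). ABF3, a bZIP factor of the same hormone, had −0.79 (SE 0.196, adjusted p = 0.0229). COR413IM1 (AT1G29395), a chloroplast membrane protein, rose in Col-0 from 4.47 to 6.15 CPM to 34.0 to 43.4 CPM and stood in spaQ at 1.35 to 2.3 CPM and 0.00 to 3.07 CPM (interaction −3.28, SE 0.810, adjusted p = 0.0225). COR47, a dehydrin, had 1.49 (SE 0.321, adjusted p = 0.0139). KIN1 (1.1, SE 0.576, adjusted p = 0.239), which shares a 50-base stretch with another gene, and ABI2 (−0.87, SE 0.315, adjusted p = 0.0913) were not called. The count of 4 was 2 without replicate 3 of Col-0 at 22 °C or replicate 2 of spaQ at 22 °C, while leaving out replicate 3 of the warm spaQ group gave 6.

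Nitrate assimilation had a share of called interactions near that of all tested genes, 11.8% against 11.9%. NIR1, nitrite reductase (0.83, SE 0.188, adjusted p = 0.0163), and GLN2, the chloroplast glutamine synthetase (0.84, SE 0.214, adjusted p = 0.0254), were called of 17 nitrate genes, but with library totals in place of TMM the list had 0 called higher and 2 lower, and 0 were called without any one library of Col-0 at 22 °C or replicate 3 of spaQ at 22 °C. TGA1 (0.39, SE 0.204, adjusted p = 0.240) and GLN1;1 (−0.70, SE 0.266, adjusted p = 0.110) were not called. Of 17 aliphatic glucosinolate genes 0 were called by edgeR, 4 at an unadjusted p under 0.05, while 11 were lower in spaQ at 22 °C, among them CYP79F1 (−3.62) and MYB29 (−3.20). DESeq2's Wald test called 1, and 6 were called without replicate 1 of Col-0 at 28 °C. SOT17 had −1.19 (SE 0.471, adjusted p = 0.122) and AT2G31790 0.12 (SE 0.203, adjusted p = 0.769). Of 19 mitotic genes 15 were lower in spaQ at 22 °C and 11 at 28 °C, against 21.7% and 13.5% of all tested genes. The interaction was called higher for 1, PCNA2, a replication clamp that overlaps another gene (0.79, SE 0.238, adjusted p = 0.0482). It lost the call in 17 of 20 alternative analyses, including without replicate 2 of spaQ at 28 °C (adjusted p = 0.154). PCNA1 had 0.76 (SE 0.253, adjusted p = 0.0709) and CYCB1;4 0.83 (SE 0.482, adjusted p = 0.289). In the mitotic list 5.26% were called for the interaction, against 11.9% of all tested genes.

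Outside the lists, the genes with the smallest interaction p on the higher side were led by AGP24 (AT5G40730), an arabinogalactan protein. It stood at 72.7, 62.1 and 60.4 CPM and then 4.93, 6.17 and 5.99 CPM in Col-0, and at 20.8, 14.9 and 13.3 CPM and then 17.9 to 25.3 CPM in spaQ (interaction 3.91, SE 0.269, adjusted p = 4.75e-05). The spaQ groups overlapped and the Col-0 groups did not. MT1C (AT1G07610), a metallothionein, stood at 360 to 395 CPM and 99.8 to 134 CPM in Col-0, and at 248 to 330 CPM and 403 to 495 CPM in spaQ (interaction 2.23, SE 0.204, adjusted p = 0.000374). NRT1.5, a nitrate transporter that loads the xylem in roots and overlaps another gene, had 3.99 (SE 0.482, adjusted p = 0.00123), with root marker sums that also fell in Col-0. Chloroplast proteins among these 10 were OEP6 (1.70, SE 0.173, adjusted p = 0.000740), of the outer envelope, and PSB28 (1.64, SE 0.202, adjusted p = 0.00138), of photosystem II. SWEET2, a sugar transporter, had 1.52, CYP706A6 1.73, AT5G48490 2.92 and AT4G12830 2.1, the last overlapping another gene. ELIP2, described above, is the tenth.

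On the lower side ARL (AT2G44080), which promotes cell expansion, came first. It stood at 12.7, 15.4 and 14.3 CPM and then 55.6, 66.8 and 61.2 CPM in Col-0, and at 41.0, 52.9 and 50.9 CPM and then 53.1, 47.9 and 49.7 CPM in spaQ (interaction −2.04, SE 0.185, adjusted p = 0.000374). AT2G43620 rose in Col-0 from 5.15 to 6.99 CPM to 217 to 283 CPM and stood in spaQ at 69.9 to 175 CPM and 163 to 316 CPM (interaction −4.48, SE 0.471, adjusted p = 0.000740). AT1G26420 rose from 1.57 to 2.71 CPM to 46.2 to 59.9 CPM and stood at 66.6 to 89.7 CPM and 45.7 to 114 CPM in spaQ (−4.62, SE 0.540, adjusted p = 0.000740). AT5G22580 was unlike these, being low in spaQ at both temperatures (7.06 to 9.17 CPM and 3.99 to 6.11 CPM against 24.0 to 28.0 CPM and 87.4 to 104 CPM in Col-0, interaction −2.45, SE 0.242, adjusted p = 0.000610). AT3G22060 had −2.47, AT5G48540 −3.21, AT4G27300 −2.19, CLT3, a chloroplast glutathione transporter, −1.96, and AT5G36907 −5.05. AT2G17740 was under the floor in Col-0 at 22 °C, and with the floor in its place the interaction was −5.23.

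Some genes responded in opposite directions in the genotypes, both called. Besides F6'H1, MT1C, CLT3 and AT5G48540, AT5G36907 rose in Col-0 from 1.21 to 2.52 CPM to at most 17.0 CPM and fell in spaQ from 17.1 to 47.1 CPM to 5.54 to 6.75 CPM. AT2G17740 fell in spaQ from 65.4 to 106 CPM to at most 27.3 CPM while it rose in Col-0 to 5.14 to 10.3 CPM. Other genes with a called interaction responded in spaQ with an unadjusted p above 0.05 in Col-0. SQP1 (AT5G24150), a squalene epoxidase, stood at 24.1 to 25.2 CPM and 24.1 to 29.8 CPM in Col-0 and rose in spaQ from 53.4 to 73.1 CPM to 167 to 236 CPM (interaction 1.59, SE 0.222, adjusted p = 0.00245). Cpn60beta2, a chloroplast chaperonin, rose from 93.4 to 134 CPM to 269 to 371 CPM in spaQ (interaction 1.58, SE 0.216, adjusted p = 0.00210) and overlaps another gene. CYP71B13 (1.79, SE 0.299, adjusted p = 0.00505), which shares stretches with other genes, AT2G34300 (1.61) and TLP2 (1.12) also rose in spaQ, and AT4G32460 fell there (−1.34, SE 0.240, adjusted p = 0.00633).

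Strong warm responses with an interaction interval inside −1 to 1 were found too. SR45a (AT1G07350), a splicing factor, rose from 21.7 to 30.8 CPM to 96.9 to 117 CPM in Col-0 and from 17.9 to 26.2 CPM to 86.6 to 111 CPM in spaQ (interaction 0.04, 95% interval from −0.46 to 0.54). SR30, a splicing factor as well, rose by 1.71 and 1.84. AT3G24100 rose by 2.29 and 2.34, AT2G19310 by 2.33 and 2.13, AT1G75280 by 1.75 and 1.33 and AT1G72416 by 1.72 and 2.0. Among genes that fell, PRP4, a cell wall protein that overlaps another gene, fell by 1.66 and 1.65, AT4G30650 by 2.62 and 2.35, AT4G34881 by 1.90 and 1.44, TBL45 by 1.62 and 1.14 and AT5G66530 by 1.60 and 1.27. Of the 144 genes chosen by the naming rule 42 overlap another annotated gene, and besides those marked above these include PORB, LHCB1.3, OHP, OHP2, LIL3:1, SEP2, GSTF2, GSTU7, MYC2, ABF3, TLP2, AT4G32460 and AT4G27300, whose reads cannot be told from those of their partners without strand information. AT1G06690 fell by 1.64 and 1.02, and its interaction was called despite an interval inside −1 to 1 (0.63, 95% interval from 0.29 to 0.96, adjusted p = 0.0234). That call was lost in 11 of 20 alternative analyses.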

How the data were processed

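Whole-seedling RNA of 12 libraries was measured by 3′ Tag-Seq, which reads transcript ends, so that a count does not depend on transcript length. The deposited table holds raw counts per gene, made by the authors with FastQC, TopHat, Bowtie2, HTSeq and edgeR, per the submitters' processing notes, which give no versions. The genome build, strand setting and handling of reads with several matches are not given in the sources used here. Reads shared by near-identical genes may be lost or split.

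Counts were joined to RefSeq TAIR10.1 by locus ID only, and 17835 of 17841 tested genes had a name there. Genes were filtered with filterByExpr by group, normalised by TMM and fitted in 1 edgeR quasi-likelihood model (edgeR 4.0.16, R 4.3.3) with a coefficient per group. P-values are two-sided and adjusted by Benjamini-Hochberg over all tested genes. The scripts were tested on simulated data. There 27 of 100 planted interactions of log2 size 1 and 89 of 100 of size 2 were recovered. A gene that was not called may thus still have an interaction of log2 size 1. CPM values are TMM-normalised. Alternatives used DESeq2 1.42.0, limma 3.58.1, other scalings and filters, thinning, the replicate number as a block, and each library left out. Same-numbered libraries did not deviate together on average (mean correlation −0.0427, range −0.365 to 0.178, 2 of 18 above 0.1). With so few libraries per group, these correlations cannot decide whether the numbers pair the libraries.

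Genes were named by a rule. It took the 10 smallest p in each direction with a mean of at least 10 CPM. In each list it took up to 4 called members, and up to 2 uncalled ones with the smallest p in Col-0. It also took up to 6 genes each for opposite responses, for responses in spaQ alone and, in each direction, for intervals inside −1 to 1. Other list members named were chosen after their values were seen. The members and lists were chosen with earlier results of these data known.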

Additional observations from a re-analysis of the deposited data

Results flagged for a closer look

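The warm response differed between Col-0 and spaQ by the interaction term for 2117 genes, among them 88 of the 144 genes chosen by the naming rule. The values of these 88 follow, and other called list members named above are not repeated. Log2 interactions above 0 were those of AGP24 3.91, MT1C 2.23, OEP6 1.70, AT5G48490 2.92, CYP706A6 1.73, NRT1.5 3.99, ELIP2 1.45, AT4G12830 2.1, PSB28 1.64, SWEET2 1.52 and HSFA7A 1.36. Also above 0 were HYH 0.92, RUP2 1.28, RVE1 1.19, CDF1 1.43, PRR5 1.17, RBCS1B 1.77, LHCB2.3 2.29, RBCS2B 0.97, LHCA1 0.80, HEMC 1.26 and CAO 0.89. Values above 0 were further found for PORC 1.1, HEMA1 1.18, ASN1 3.38, PSBS 0.88, OHP 0.79, LIL3:1 0.87, COR47 1.49, FRO2 4.69, IRT1 7.32, NIR1 0.83 and GLN2 0.84. The remaining values above 0 were PCNA2 0.79, Cpn60beta2 1.58, SQP1 1.59, AT2G34300 1.61, CYP71B13 1.79, TLP2 1.12 and AT1G06690 0.63. Log2 interactions below 0 were those of ARL −2.04, AT2G17740 −6.09, AT5G22580 −2.45, AT3G22060 −2.47, AT2G43620 −4.48, AT1G26420 −4.62, AT5G48540 −3.21, AT4G27300 −2.19, CLT3 −1.96, AT5G36907 −5.05 and HFR1 −1.48. Also below 0 were GID1B −1.30, BR6OX2 −1.17, GA2OX2 −1.33, EXP3 −1.03, EXPA10 −1.46, XTH23 −2.88, HSFB1 −2.42, PHYA −0.67, NAC6 −2.23, SAG13 −4.81 and DIN11 −6.62. Values below 0 were further found for LDOX −2.45, GSTF12 −2.57, MYB75 −2.72, MYB90 −4.17, CYP81F2 −4.70, CYP83B1 −1.85, MYB51 −3.71, AT2G04400 −2.48, AOC1 −1.71, LOX4 −2.27 and AOC2 −1.61. Another group below 0 was LOX2 −1.95, WRKY33 −3.58, WRKY40 −3.02, WRKY18 −1.21, PR5 −2.90, ABI1 −1.60, COR413IM1 −3.28, ABF3 −0.79, F6'H1 −2.66, BTS −1.68 and GSTF7 −5.75. The remaining values below 0 were GSTF6 −5.24, GSTU4 −5.16, GSTF2 −4.07 and AT4G32460 −1.34. The fitted values of MYB90 and AT2G17740 depend on counts under the floor in Col-0 at 22 °C, and their values at the floor are −3.18 and −5.23.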

How the results depend on the processing

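The interaction count of 2117 was 1343 with the replicate number as a block, although the labels do not say that the numbers pair the libraries. It ranged from 885 to 2838 when single libraries were left out. The count for the warm response of spaQ, 2217, ranged from 1088 without replicate 1 of spaQ at 22 °C to 4024 without replicate 2 of spaQ at 28 °C, and was 1587 with the block. The cause was not tested. Under the other scalings, tests and filters the interaction count lay between 1884 and 2232. Higher calls made up 55.5% of the 2117. That share was 25.6% under library totals, 37.7% when no filter was applied, 49.5% with DESeq2 size factors, 48.6% with DESeq2's Wald test, 48.8% with the block, and from 36.8% (without replicate 3 of spaQ at 22 °C) to 56.4% when single libraries were left out, so which direction held more calls was not stable. Of the 144 genes chosen by the naming rule 88 were called. Of these, 65 kept their call in all 20 alternatives, 23 lost it in at least 1, and 0 changed sign. Calls were lost most often by PCNA2 (17 of 20), HSFA7A (13), GA2OX2 (12) and AT1G06690 (11). Depth limits low genes: 3 counts were worth up to 1.15 CPM.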
